A study of Glycine max with 12 samples.

Results

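The difference between the aphid response of a susceptible and of a resistant soybean cultivar was examined in leaves on 12 Affymetrix Soybean Genome Arrays, 3 for each of 4 groups, which are all 12 arrays of the series. Aphid-susceptible SD01-76R plants (S plants) and aphid-resistant LD05-16060 plants carrying the Rag1 resistance gene (R plants) were either infested with soybean aphids or left uninfested. Infested plants received 30 aphids each, and leaves of the trifoliate that had received them were harvested after 21 days, with the leaves of 2 plants pooled for each array and the aphids removed first. All plants, uninfested ones included, were netted in 1 growth chamber. Each probe set joins several short probes for the same transcript. For every probe set the infested minus uninfested difference of S plants was set against that of R plants, and the interaction is the S difference minus the R difference on the log2 scale. A positive interaction therefore means a more positive aphid difference in S plants. All 37593 soybean probe sets of the array were tested.

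Several features of the design limit what the interaction can be read as. By the study's account, infested S plants carried many more aphids than infested R plants at harvest, so cultivar and aphid load cannot be told apart. Infested and uninfested plants stood on different sides of the chamber, so the side and the aphids cannot be told apart either, although a side effect common to both cultivars would cancel in the difference. The cultivars are described as related, which leaves other genetic differences beside Rag1. In whole leaves, fewer cells of a type and less RNA per cell cannot be told apart. The 3 arrays of a group held different plants of 1 experiment, so p-values measure the spread between these pools and not between experiments.

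Aphids feed on phloem sap through a stylet that passes between leaf cells and punctures some of them on the way. Plants answer such feeding through calcium signals, mitogen-activated protein kinases, the hormones salicylic acid, jasmonic acid and ethylene, and transcription factors of the WRKY, NAC, MYB and AP2/ERF families, which bind DNA and set the level of defense genes. Soybean leaves also hold large pools of isoflavonoids, made from phenylalanine through the phenylpropanoid pathway, and of soyasaponins, made from triterpenes. Rag1 confers resistance that lowers aphid numbers on the plant.

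The leaf identity of the samples was checked first. The brightest probe set of the chlorophyll a/b-binding protein CAB3 had group means from 12.23 to 12.72, and that of the Rubisco activase RCABETA from 9.13 to 10.08, while seed storage globulins such as GY1, GY2 and CG-1 lay between 4.55 and 5.78 on all 12 arrays. Other CAB3 probe sets ranged down to 5.05, so brightness differs between probe sets of the same gene. The brightest leaf probe sets lay far above the seed ones in every group. Values at or under 5.40, the lowest 15% of all normalized values, are called dim below, because a fold change measured from a dim level depends on the background.

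The 3 infested S arrays stood apart from the rest. They lay above all other 9 arrays for 1533 probe sets (4.08% of those tested) and below all of them for 1384 (3.68%). In each of the other 3 groups the 3 arrays lay above the other 9 for 57 to 141 probe sets (0.152% to 0.375%) and below them for 67 to 137 (0.178% to 0.364%). The smallest of these counts belonged to infested R plants, at 57 above (0.152%) and 67 below (0.178%).

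**Figure D1:**
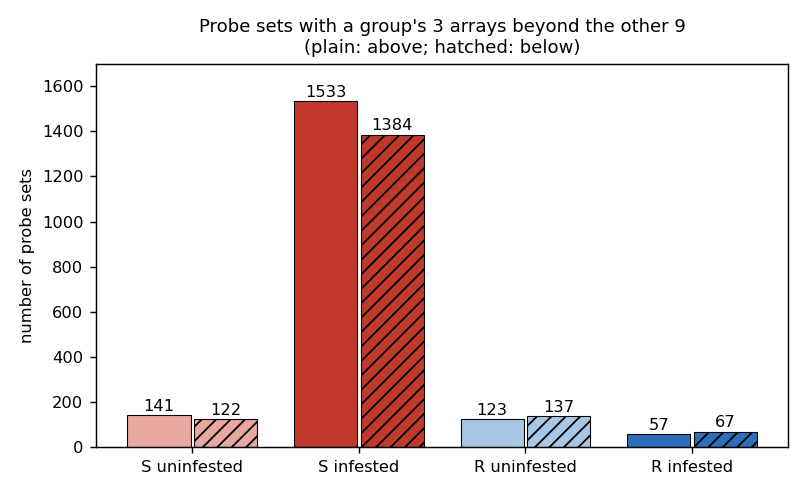
Number of probe sets, of 37593, for which the 3 arrays of a group all lay above (plain bars) or all lay below (hatched bars) the other 9 arrays, by group. Infested S plants have 1533 and 1384 such probe sets, and no other group has more than 141.

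The study's own cutoffs asked for an unadjusted p of 1e-04 or less, a q value of 0.04 or less by Storey's method and a fold of 2 or more, and 2 probe sets met them for the interaction (0.00532% of those tested). When p was adjusted for all 37593 tests by the method of Benjamini and Hochberg, 3 probe sets had an adjusted p under 0.05 in limma, all with the larger rise in S plants (0.00798%), and 0 in the other direction. An unadjusted p under 0.05 was found for 2600 (6.92%), of which 1435 (3.82%) had the positive and 1165 (3.1%) the negative sign. At relaxed criteria, which took an unadjusted p of 0.05 or less together with a fold of 2 or more, 735 probe sets (1.96%) had the more positive difference in S plants and 345 (0.918%) the more negative. The relaxed criteria are not adjusted for the number of probe sets and serve here to describe, not to call. By the same adjusted p, 945 probe sets rose (2.51%) and 339 fell (0.902%) in S plants with aphids, and 0 changed in R plants. There 449 (1.19%) had an unadjusted p under 0.05 upward and 327 (0.87%) downward, and the smallest adjusted p was 0.472. With the array number as a block, which this fit leaves out, the interaction had an adjusted p under 0.05 for 67 probe sets. Of these, 60 had the positive and 7 the negative sign.

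The 1080 probe sets at the relaxed criteria had a common shape. Among the 735 with a positive interaction, the median aphid difference was 1.75 in S plants and 0.205 in R plants, and the difference had the same sign in both cultivars for 545 (74.1%). Among the 345 with a negative interaction, the median was -1.24 in S plants and 0.127 in R plants, and the R difference had the opposite sign to the S difference for 220 (63.8%). The R difference was larger in size than the S difference for 3 of the 735 and 16 of the 345. The uninfested cultivars met the relaxed criteria against each other for 10 of the 735 and 8 of the 345, whereas the infested cultivars did for 648 and 240. The interaction estimate is built from these same 4 group means, so these counts describe it and do not test it.

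**Figure D2:**
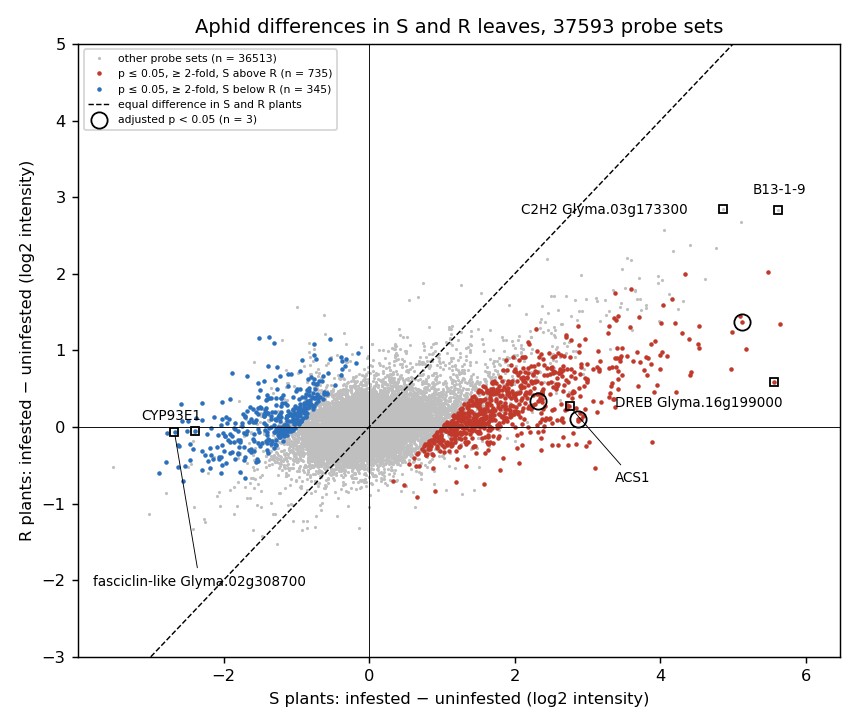
Infested minus uninfested difference (log2 intensity) in S plants (horizontal axis) and R plants (vertical axis) for each of 37593 probe sets, with 735 red and 345 blue points at the relaxed criteria for the interaction and 3 circled probe sets with an adjusted p under 0.05. The cloud stretches along the S axis, and the R difference is the larger of the pair in size for 3 of the red and 16 of the blue points. Squares mark further probe sets named in the text.

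The R arrays were next read over the study's own table of probe sets changed by aphids in S plants. Its 365 probe sets were chosen by the difference between S arrays, so their S difference and their interaction are not independent evidence. The R difference did not choose them, but the R arrays entered the study's fit and so its error variance, which can favour small R p-values here. Of the 258 that were higher in infested S plants, 253 (98.1%) also had a positive R difference, against 46.8% of all probe sets. Their median R difference was 0.707 beside a median S difference of 2.7, and 84 of them (32.6%) had an unadjusted R p under 0.05 in the same direction, against 1.19% of all probe sets. Without infested R array 2 these counts were 225 and 38. Over all 37593 probe sets the same counts were 17575 and 449 with all 12 arrays, and 18086 and 1174 without that array. Of the 107 that were lower, 87 (81.3%) had a negative R difference, against 53.2% of all probe sets, with a median of -0.268 beside -1.88 in S plants. For the single probe set the R difference was, at the median, 0.249 of the S difference among the rising members, with quartiles of 0.17 and 0.353, and 0.151 among the falling members, with quartiles of 0.0419 and 0.224. The S difference that the ratio is taken against was also the one that chose the list.

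The R difference of the rising members was uneven between arrays. Measured from the mean of the uninfested R arrays, the median over the 258 probe sets was 0.239, 1.3 and 0.487 on infested R arrays 1, 2 and 3, and 0.0182, 0.156 and -0.199 on the uninfested ones. On the infested S arrays it was 3.21, 2.58 and 2.37, and on the uninfested S arrays, from their own mean, 0.106, 0.26 and -0.406. Infested R array 2 thus lay between the other infested R arrays and the infested S arrays, and it was the highest of the 3 infested R arrays for 210 of the 258 probe sets (81.4%), against 35.2% of all probe sets. Without this array the median R difference of the rising members was 0.354. Array 2 was also the highest of the uninfested arrays in each cultivar, and all 6 pairs of arrays numbered 2 had a correlation over 0.1. Leaving out infested R array 2 keeps the other arrays of that number. The part of a factor shared by them was not tested. The aphid number on the plants of each array is not given, so its part was not tested either. For the falling members the 3 infested R arrays read -0.128, -0.315 and -0.305, and array 2 did not stand apart.

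**Figure D3:**
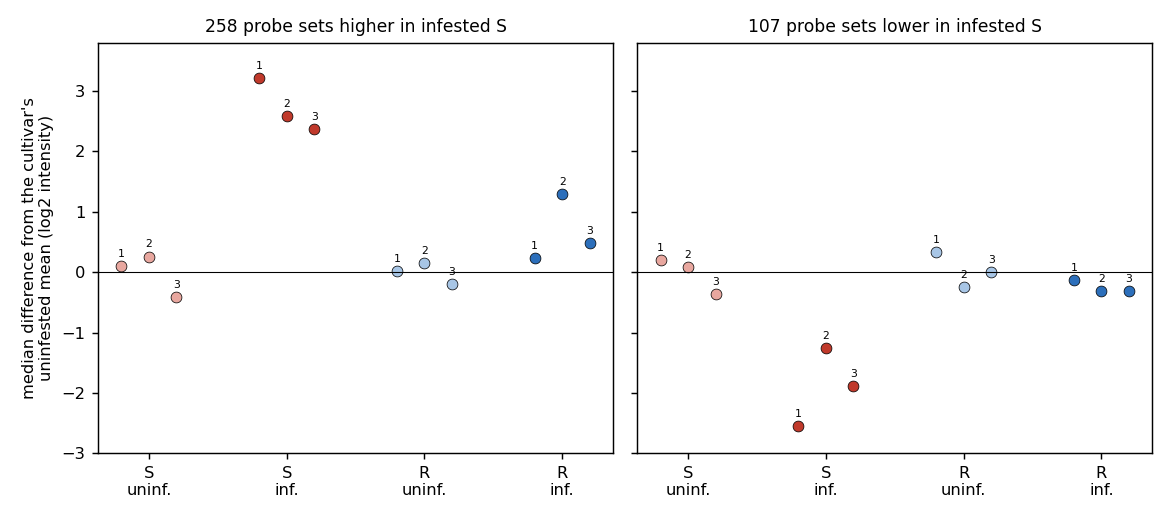
Median difference (log2 intensity) of each array from the mean of the uninfested arrays of its own cultivar, over the 258 rising and the 107 falling probe sets of the study's S list, with array numbers printed at the points. Infested R array 2 reads 1.3 for the rising members, above the 0.239 and 0.487 of the other infested R arrays and below the 2.37 to 3.21 of infested S plants.

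Leaving out infested R array 2 also changed the number of calls most. The interaction then had an adjusted p under 0.05 for 140 probe sets, 107 with the more positive difference in S plants and 33 with the more negative, and 98 met the study's cutoffs. All 3 probe sets called with 12 arrays were among them. Leaving out infested S array 2 or 3 gave 33 and 37 probe sets with an adjusted p under 0.05, and leaving out any of the other 9 arrays gave 0 to 10.

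Glyma.07g043000, whose product resembles auxin-repressed proteins, had the smallest interaction p. Its log2 intensity was 7.23, 7.12 and 7.21 on the uninfested and 9.38, 9.39 and 9.76 on the infested S arrays. In R plants it was 5.89, 6.08 and 6.16 without and 6.15, 6.49 and 6.52 with aphids. The groups of S plants did not overlap with each other or with any R array, and R plants were lower already without aphids, by 1.15 (adjusted p = 0.0136 for uninfested R against uninfested S plants). Aphids went with a rise of 2.32 (5.0-fold) in S plants and a difference of 0.34 in R plants, and the interaction was 1.98 ± 0.22 (SE, n = 3 arrays a group, adjusted p = 0.0356). The other 2 called probe sets had uninfested differences between the cultivars of 0.00 and 0.14.

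Glyma.15g142200, for which no function was assigned, rose most among the called probe sets. It read 6.04, 5.11 and 5.02 on the uninfested S arrays and 10.35, 10.77 and 10.41 on the infested ones. R plants read 4.97, 5.93 and 5.27 without aphids, and 7.10, 6.91 and 6.30 with them. Every infested R array lay above every uninfested array of either cultivar, and every infested S array lay above all R arrays. The S difference of 5.13 started from means in the dim range, so its fold depends on the background, the R difference was 1.38 (unadjusted p = 0.000881, not past the adjusted threshold), and the interaction was 3.75 ± 0.44 (SE, adjusted p = 0.0401).

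LOC100779018 (Glyma.11g243200), a gene of unknown function, showed no such rise in R plants. Its infested S arrays read 9.03, 7.87 and 8.13, whereas the other 9 arrays lay between 5.27 and 5.83. In R plants the difference was 0.11 with a 95% interval of -0.43 to 0.64, and the interaction was 2.76 ± 0.35 (SE, adjusted p = 0.0485). It missed the study's cutoffs on the q value. Its adjusted p stayed under 0.05 in 9 of 21 alternative settings, and those of Glyma.07g043000 and Glyma.15g142200 in 10 of 21 each, while the sign was the same in all 21.

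**Figure D4:**
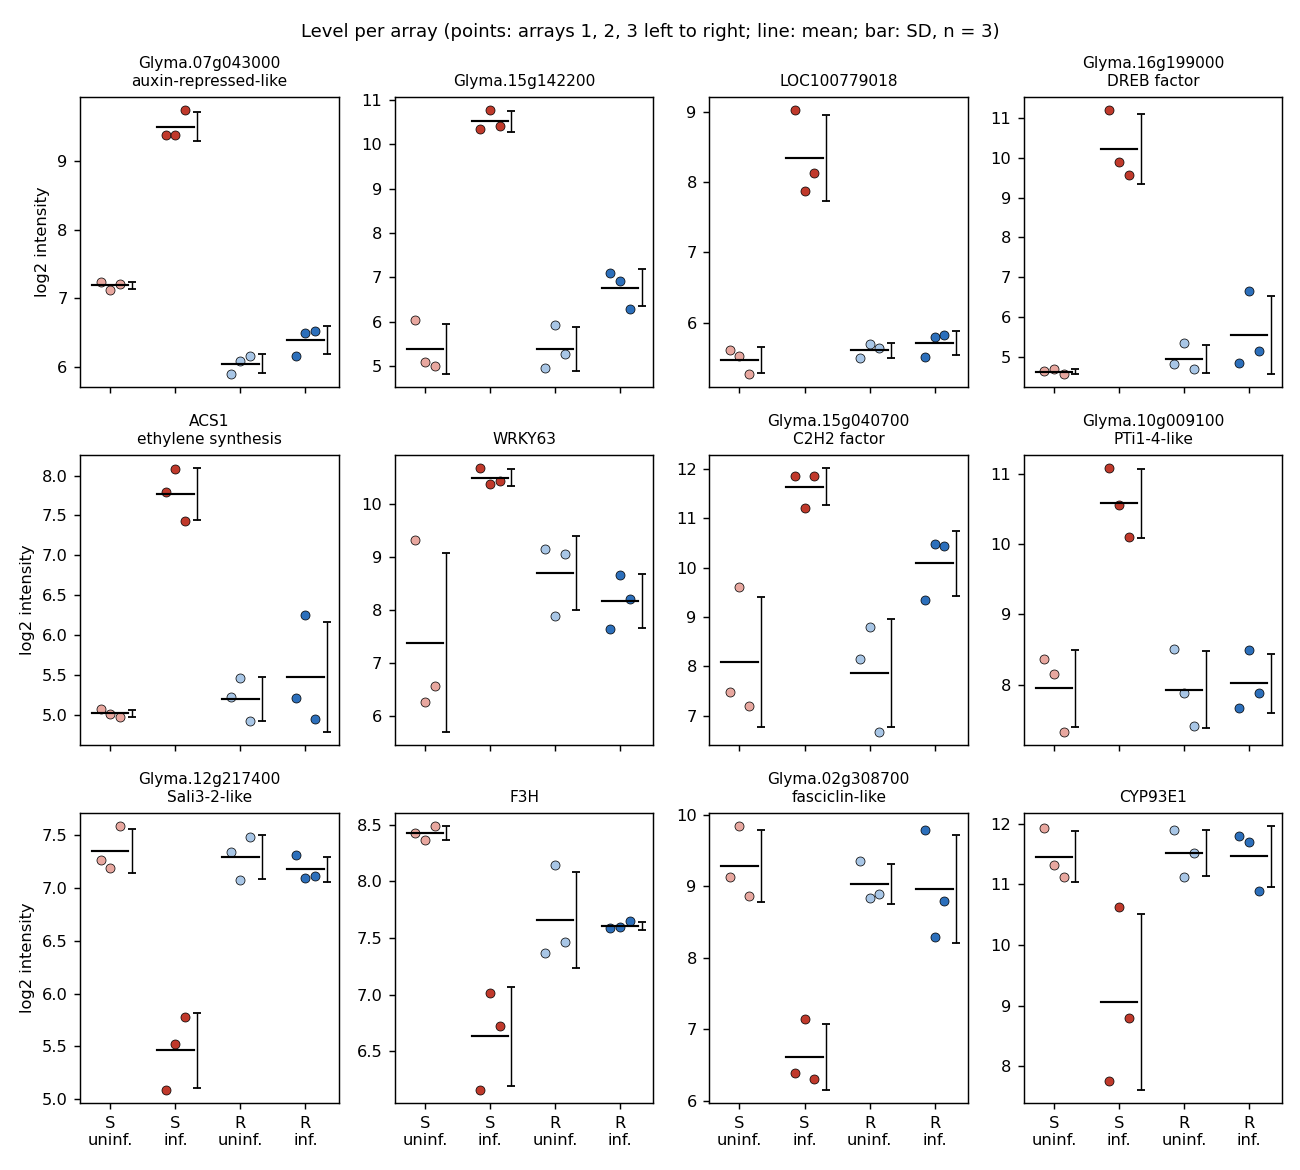
Log2 intensity on each array for 12 probe sets, by group (uninf., uninfested, and inf., infested), with lines at the means and bars for the SD of 3 arrays. In the panels of Glyma.07g043000, Glyma.15g142200 and LOC100779018 the 3 infested S arrays lie above all others, and in the lowest row the infested S arrays lie below the other groups.

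No other probe set passed the adjusted threshold with 12 arrays and no block, and those named from here on are given by their values. The next smallest p belonged to Glyma.16g199000, a DREB factor of the AP2 family, related to Arabidopsis genes that switch on dehydration and cold responses. Its infested S arrays read 11.19, 9.88 and 9.55, its uninfested S arrays 4.65, 4.70 and 4.58, its uninfested R arrays 4.82, 5.37 and 4.70, and its infested R arrays 4.85, 6.67 and 5.15. It had the largest interaction of all probe sets tested, 4.98 ± 0.65 (SE, adjusted p = 0.0532), starting from dim levels, and the only infested R array above 5.40 was array 2. Without that array the interaction was 5.53 with an adjusted p of 0.00354. A second DREB factor, Glyma.09g147200, read 11.21, 10.45 and 9.67 in infested S plants and 5.44, 8.07 and 6.34 in infested R plants, with an interaction of 4.16 ± 0.95 (adjusted p = 0.249). Glyma.02g132500, closest to the Arabidopsis redox responsive factor RRTF1, read 9.86, 9.05 and 7.98 in infested S plants against 4.58 to 6.27 on the other 9 arrays. Its interaction was 3.76 ± 0.64 (adjusted p = 0.105). These genes do not stand for the family. Of 14 AP2/ERF and DREB genes taken by symbol, 2 had a positive and 0 a negative interaction at the relaxed criteria (14.3%, against 2.87% of all probe sets). The list median was -0.0165, beside -0.0276 for all probe sets.

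The study lists 36 transcription factors changed by aphids in S plants, a list chosen on these S arrays, so their interaction is a description and no independent evidence. Of these, 32 met the relaxed criteria with a positive interaction and 0 with a negative, against 1.96% and 0.918% of all probe sets, and their median difference was 2.64 in S plants and 0.688 in R plants. In R plants 10 of the 36 had an unadjusted p under 0.05, all upward, against 1.19% of all probe sets. Without infested R array 2 only 2 did, and the median R difference was 0.276. The upward count over all 37593 probe sets went from 449 with all 12 arrays to 1174 without that array. The factor families taken by symbol, below, differed widely in their medians. The 2 factors that fell in S plants, Glyma.03g258400 and the bHLH factor Glyma.09g247000, had R differences of -0.38 each and interactions of -0.84 and -0.94.

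WRKY factors, taken by gene symbol and so not chosen on the S arrays, were the family with the most members at the relaxed criteria. Of 52 WRKY genes, 16 had a positive and 0 a negative interaction at those criteria (30.8%, against 2.87% of all probe sets in either direction), and the family median was 0.665, beside -0.0276 for all probe sets. It lay between 0.622 and 0.678 under the alternative scalings and background corrections. Without infested R array 2 the count was 20. Leaving out that array also raised the positive count over all 37593 probe sets, from 735 to 1100. In S plants 15 of the 52 rose with an adjusted p under 0.05 and 0 fell, against 2.51% and 0.902% of all probe sets. The median aphid difference was 0.898 in S plants and 0.12 in R plants. WRKY5, closest to Arabidopsis WRKY33, a regulator of camalexin synthesis and of resistance to necrotrophic fungi in that species, read 9.53, 8.42 and 7.996 in infested S plants. Its infested R arrays read 5.80, 7.19 and 5.70, so that array 2 alone was raised above the uninfested range of 5.78 to 6.07. The interaction was 2.47 ± 0.57 (adjusted p = 0.249). WRKY46 (Glyma.08g021900) read 11.49, 10.88 and 10.22 in infested S plants and 6.39, 9.50 and 6.46 in infested R plants, with an interaction of 3.06 ± 1.02 (adjusted p = 0.505). Infested R array 2 was again the high one of the 3. Without it WRKY5 and WRKY46 were the 2 of 52 genes with an adjusted p under 0.05, at 0.0247 and 0.0258. Over all 37593 probe sets 107 had such a positive interaction without that array. WRKY17 read 10.71, 9.30 and 9.60 in infested S plants and 7.02, 7.47 and 7.06 in infested R plants, with an interaction of 2.35 ± 0.55 (adjusted p = 0.268).

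A pair of WRKY genes had a different shape. WRKY63 (Glyma.14g102900), related to Arabidopsis WRKY40, read 10.68, 10.38 and 10.43 in infested S plants, and 9.33, 6.27 and 6.56 in uninfested ones, with array 1 far above the rest. In R plants it read 9.15, 7.90 and 9.05 without aphids and 7.65, 8.66 and 8.21 with them. Uninfested R plants thus had the higher mean by 1.31 (unadjusted p = 0.0633), the R difference was -0.53, and the interaction of 3.64 ± 0.91 (adjusted p = 0.312) combined both. WRKY30 (Glyma.17g222300) was also higher in uninfested R than in uninfested S plants on average, by 1.24, with array 1 of the uninfested S plants again high at 9.44 against 6.43 and 6.80, and its interaction was 2.90 ± 0.95 (adjusted p = 0.501).

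Among the other families, 3 of 15 NAC genes had a positive and 0 a negative interaction at the relaxed criteria (20%, against 2.87% of all probe sets). The NAC median was 0.457. NAC26 read 10.30, 9.29 and 10.05 in infested S plants, above the 8.14 to 8.46 of uninfested S plants, while R plants read 8.60 to 9.20 without and 7.89 to 9.16 with aphids, and its interaction was 1.94 ± 0.45 (adjusted p = 0.272). Of 65 MYB genes 5 met the criteria (7.69%), all upward, and the median was 0.00684, close to that of all probe sets. MYB81 and MYB29 had interactions of 1.27 ± 0.29 and 1.99 ± 0.50. MYB179 was different: it read 6.69, 6.74 and 6.50 in infested R plants, below all 9 other arrays, which lay between 6.88 and 7.78. Its R difference was -0.71 (unadjusted p = 0.00396), its S difference 0.33 and its interaction 1.03 ± 0.28 (adjusted p = 0.357). Of 61 bZIP genes 1 met the criteria, a share of 1.64% that is below that of all probe sets.

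The GRAS factors, plant regulators that include relatives of Arabidopsis SCARECROW, were represented by Glyma.12g137700, related to the phytochrome signaling factor PAT1 of Arabidopsis. It read 9.05, 8.88 and 8.06 in infested S plants, 5.97 to 6.19 in uninfested S plants, 5.31 to 5.87 in uninfested R plants and 6.04 to 6.29 in infested R plants. The infested R arrays lay above all uninfested R arrays and near the uninfested S arrays. The interaction was 2.00 ± 0.33 (adjusted p = 0.102).

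Of 4 ethylene synthesis and perception genes, 1 met the relaxed criteria (25%, against 2.87% of all probe sets). That gene, ACS1, an ACC synthase that makes the precursor of ethylene, read 7.79, 8.09 and 7.44 in infested S plants and 4.92 to 6.25 on the other 9 arrays, the highest of which was infested R array 2. Its interaction was 2.48 ± 0.41 (adjusted p = 0.102) and that of its second probe set 2.14 ± 0.36 (adjusted p = 0.105). Without infested R array 2 the first had an adjusted p of 0.00354. ETR2, an ethylene receptor, went the other way by a smaller amount, with all 3 infested S arrays at or under 7.02, below the 7.05 to 7.91 of the other 9, and an interaction of -0.65 ± 0.25 (adjusted p = 0.612).

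Calcium sensing was represented by the CML38-like Glyma.04g136600, a calmodulin-like protein, with 10.10, 9.92 and 9.56 in infested S plants and 6.29, 7.50 and 6.56 in infested R plants. Uninfested plants of both cultivars lay between 5.41 and 6.21, so the infested R arrays were also above them. The R difference was 1.12 (unadjusted p = 0.00275) and the interaction 2.80 ± 0.42 (adjusted p = 0.079). Among 9 calcium sensors taken by symbol, SCAM-4 alone met the relaxed criteria (11.1%, against 2.87% of all probe sets), with 1.14 ± 0.42. SCAM-5, a divergent calmodulin like SCAM-4, had 0.84 ± 0.20 from a dim level.

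Of 26 immune kinases and signaling genes taken by symbol, 1 met the relaxed criteria (3.85%, against 2.87% of all probe sets), NDR1b with 1.41, and the list median was 0.176. Kinases named by the study or picked by their p are given next. Glyma.10g009100, related to the kinase PTi1-4, read 11.09, 10.56 and 10.10 in infested S plants, against 7.32 to 8.36 without aphids. R plants read 8.50, 7.88 and 7.40 without and 7.67, 8.49 and 7.88 with aphids, so that the infested arrays lay inside the range of the uninfested ones. In R plants the difference was 0.09 with a 95% interval of -0.69 to 0.86, and the interaction was 2.55 ± 0.50 (adjusted p = 0.198). Glyma.U021800, a mitogen-activated protein kinase related to Arabidopsis MPK3, read 12.02, 11.85 and 11.11 in infested S plants and 9.12, 10.37 and 9.26 in infested R plants, with an interaction of 1.94 ± 0.46 (adjusted p = 0.293). Glyma.02g297200, related to the WNK kinases, read 8.64, 7.98 and 8.29 in infested S plants against 5.89 to 6.65 elsewhere, with an interaction of 1.91 ± 0.30 (adjusted p = 0.079).

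The study names 4 genes related to Arabidopsis NHL10, a membrane protein used as a marker of immune responses, and their R differences ran from 0.63 to 2.83. B13-1-9 (Glyma.03g201300), first described in soybean cells treated with the bacterial elicitor syringolide, read 12.26, 11.63 and 11.47 in infested S plants and 6.99, 10.43 and 8.73 in infested R plants. Its uninfested arrays read 5.07, 8.22 and 5.20 in S plants and 5.50, 7.13 and 5.01 in R plants, with array 2 the highest in each. The R difference was 2.83 (7.13-fold, unadjusted p = 0.00954), and the interaction of 2.79 ± 1.30 had a 95% interval of -0.05 to 5.62. Its neighbour Glyma.03g201100 read 11.53, 9.82 and 10.02 in infested S plants and 7.56, 8.30 and 7.18 in infested R plants, with an R difference of 0.63 and an interaction of 2.80 ± 0.63 (adjusted p = 0.243). The interactions of Glyma.03g201000 and Glyma.03g201500 were 2.27 ± 0.68 and 1.52 ± 0.44. These genes are similar in sequence, and some signal may be shared between their probe sets.

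Cell wall genes were found on both sides of the interaction. Glyma.01g014000, a cellulose synthase-like gene, read 10.49, 9.57 and 9.17 in infested S plants against 6.46 to 7.21 on the other 9 arrays, with an interaction of 2.80 ± 0.42 (adjusted p = 0.079). Glyma.13g095100, a xyloglucan endotransglycosylase-related gene whose class cuts and rejoins wall polymers, read 9.52, 8.78 and 8.16 against 5.96 to 6.64, with an interaction of 2.48 ± 0.39 (adjusted p = 0.079). In the opposite direction, the fasciclin-like arabinogalactan protein gene Glyma.02g308700 read 6.38, 7.14 and 6.31 in infested S plants and 8.29 to 9.85 on the other 9 arrays. Its 3 probe sets had interactions of -2.50 ± 0.47, -2.60 ± 0.52 and -2.70 ± 0.58, with adjusted p of 0.153, 0.206 and 0.227. The endo-1,4-beta-glucanase gene LOC732598 (Glyma.08g022300) read 6.48, 7.20 and 6.74 in infested S plants and 7.96 to 9.54 elsewhere, and its probe sets had interactions of -1.74 ± 0.43 and -1.66 ± 0.43. Of 9 cell wall proteins taken by symbol, 1 met the relaxed criteria (11.1%, against 2.87% of all probe sets). It was XET1, with an interaction of 1.04.

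Among the probe sets with a gene name, the smallest p of a negative interaction belonged to Glyma.12g217400 (LOC100805579), which resembles Sali3-2, a soybean protein induced by aluminium. It read 5.09, 5.52 and 5.78 in infested S plants, and the other 9 arrays lay between 7.07 and 7.59. The S difference was -1.89, the R difference -0.12 with a 95% interval of -0.53 to 0.29, and the interaction -1.77 ± 0.27 (adjusted p = 0.079). The calcium/proton exchanger Glyma.07g149600 read 7.57, 8.25 and 8.11 in infested S plants and 9.59 to 10.99 elsewhere, with an interaction of -2.24 ± 0.46 (adjusted p = 0.223). The DREB factor of subfamily A-4 Glyma.16g023800 was the reverse of the DREB factors named above. It read 6.65, 7.31 and 7.41 in infested S plants against 8.43 to 10.03, and its interaction was -2.02 ± 0.43 (adjusted p = 0.223). Over the 15 gene-assigned probe sets of each sign with the smallest p, R differences ran from -0.51 to 0.20 for negative and from -0.14 to 1.38 for positive interactions.

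Phenylpropanoid genes were found on both sides of the interaction. The study lists 15 probe sets of this pathway, chosen on the S arrays, of which 5 had a positive and 10 a negative interaction at the relaxed criteria. All 5 rising members had positive R differences, between 0.37 and 0.71, of which 1 had an unadjusted p under 0.05. Without infested R array 2 these differences ran from 0.026 to 0.812, and the lowest belonged to Glyma.11g198300. The 10 falling members, of which 8 had an adjusted p under 0.05 in S plants, had R differences between -0.11 and 0.20. None of these R differences had an unadjusted p under 0.05. A 4-coumarate-CoA ligase-like gene, Glyma.11g198300, whose class activates the acids that feed all branches, read 9.79, 10.37 and 8.17 in infested S plants and 5.37, 7.12 and 5.70 in infested R plants, with an interaction of 3.41 ± 0.81 (adjusted p = 0.293). Of 8 entry genes taken by symbol, which include PAL2.1 and C4H, 1 met the relaxed criteria (12.5%, against 2.87% of all probe sets). It went in the other direction: 4CL, a 4-coumarate-CoA ligase, had an interaction of -1.08 (unadjusted p = 0.00177). The list median was 0.31. A CHS1 probe set of the study's list, for the enzyme at the entry to flavonoids, had an interaction of 1.90 ± 0.60, whereas another chalcone synthase-like gene, Glyma.19g105100, had -2.25 ± 0.60. The CHS1 probe set taken by symbol, a different one, had 0.34 ± 0.69 (unadjusted p = 0.6315). Of 2 chalcone synthase genes taken by symbol, 0 met the relaxed criteria. The CHS genes are near-identical copies, so the signal of 1 probe set cannot be assigned to 1 gene.

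In the flavonol and anthocyanin branch 3 of 8 genes taken by symbol had a negative interaction at the relaxed criteria. F3H, flavanone 3-hydroxylase, read 8.43, 8.36 and 8.49 in uninfested and 6.15, 7.01 and 6.72 in infested S plants. In R plants it read 7.37, 8.15 and 7.46 without and 7.58, 7.60 and 7.65 with aphids, and uninfested R plants were below uninfested S plants by 0.77 (unadjusted p = 0.00597). The R difference was -0.05 with a 95% interval of -0.55 to 0.45, and the interaction was -1.75 ± 0.33 (adjusted p = 0.151). FLS1, flavonol synthase, read 6.52, 7.31 and 7.07 in infested S plants and 7.41 to 8.08 in infested R plants, with an interaction of -1.42 ± 0.33 (adjusted p = 0.257). UGT78K1, an anthocyanin glucosyltransferase, had -1.17 ± 0.36. These 3 (37.5%, against 2.87% of all probe sets) also fell in S plants with an adjusted p under 0.05, against 0.902% of all probe sets. The other 5, among them ANS2, DFR1, ANR1 and LAR1, had interactions between -0.19 and 0.09, and the list median was -0.116. An anthocyanin acyltransferase-like gene of the study's list, Glyma.13g302500, had a positive interaction of 1.57. In the isoflavonoid branch 0 of 20 genes met the relaxed criteria, with a median of 0.121. The isoflavonoid glycosyltransferase-like gene Glyma.15g054300 from the study's list had -1.76 ± 0.38, and the isoflavonoid malonyltransferase Glyma.18g258000 had -1.97 ± 0.57.

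All 3 soyasaponin synthesis genes found by symbol met the relaxed criteria downward, against 0.918% of all probe sets. CYP93E1, the beta-amyrin 24-hydroxylase of the soyasaponin pathway, read 11.93, 11.31 and 11.12 in uninfested and 7.76, 10.63 and 8.80 in infested S plants. The R arrays read 11.89, 11.12 and 11.52 without aphids, and 11.80, 11.70 and 10.89 with them. The infested S arrays lay below all others, array 2 by the least, the S difference was -2.39 (5.25-fold, adjusted p = 0.0363), and the interaction was -2.34 ± 0.79 (unadjusted p = 0.0115, adjusted p = 0.509). SGT2 and SGT3, glycosyltransferases that add sugars in the same pathway, had interactions of -1.75 ± 0.75 and -2.12 ± 0.96, and on infested S array 2 both read 11.26 and 11.10, inside the range of uninfested S plants. Without infested R array 2, 2 of the 3 genes met the relaxed criteria, and 2 of the 3 did under either alternative background correction. Over all 37593 probe sets 692 had a negative interaction at those criteria without that array.

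Over all 37593 probe sets 17244 interactions were positive and 20349 negative, and 2.87% met the relaxed criteria. Lipoxygenase and jasmonate synthesis genes had a median interaction of -0.371 over 15 genes, of which 12 were negative and 1 met the relaxed criteria (6.67%). That gene, the vegetative lipoxygenase VLXC, read 8.40, 10.54 and 8.78 in infested S plants and 10.98 to 11.78 elsewhere, with an interaction of -1.77 ± 0.58 (adjusted p = 0.502). Of 5 purple acid phosphatases, PAP25 had an interaction of -1.83 ± 0.51, with infested S arrays at 7.96, 9.20 and 8.55 against 10.26 to 12.02 elsewhere. Of 19 aquaporins, SIP1-6 alone met the criteria (5.26%), with -1.65 ± 0.74, and its groups of arrays overlapped. All 9 pathogenesis-related and osmotin-like proteins had a positive interaction with a median of 1.08, but 0 met the relaxed criteria. Their arrays were widely spread, as for OLPb, an osmotin-like protein, with 9.85, 7.77 and 7.78 in uninfested S plants and an interaction of 1.43 with a 95% interval of 0.00 to 2.86. Protease inhibitors, isoflavonoid genes, heat shock proteins, photosynthesis genes, nitrogen assimilation genes, sugar transporters, sieve element occlusion proteins and seed storage proteins had 0 members at the relaxed criteria. The list medians of these 8 ran from -0.509 for photosynthesis to 0.121 for the isoflavonoid branch, and in photosynthesis 8 of 9 genes had a negative interaction.

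**Figure D5:**
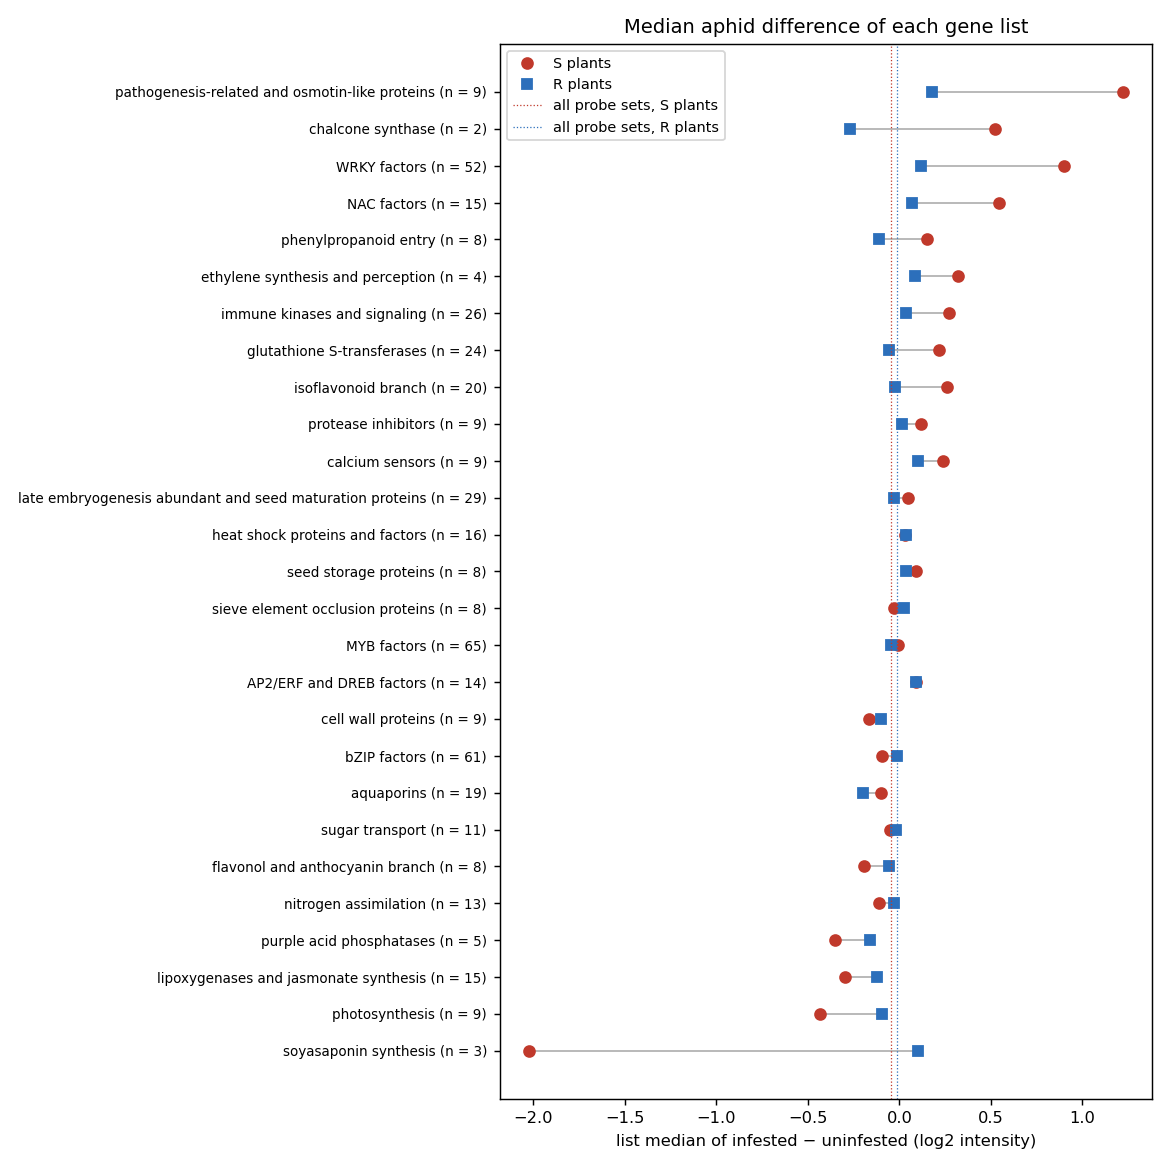
List median of the infested minus uninfested difference (log2 intensity) in S plants (red circles) and R plants (blue squares) for 27 gene lists with 1 probe set per gene, and dotted lines at the medians of all probe sets. The S medians run from -2.02 for soyasaponin synthesis to 1.22 for pathogenesis-related proteins, and the R medians from -0.269 to 0.179.

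No R difference passed the adjusted threshold, but some genes had sizeable differences in both cultivars. Among the 1284 probe sets with an adjusted p under 0.05 in S plants, 10 also had an unadjusted p under 0.001 in R plants. Over all 37593 probe sets 15 had such an R p (0.0399%), a share below the threshold of 0.001 itself. Both differences share 1 error variance per probe set, so choosing on the S p can favour small R p-values. The 10 were picked after the values were seen. Glyma.04g194800, a calcium-binding EF-hand protein, had the smallest R p of them. It read 6.25, 6.85 and 6.16 in uninfested and 8.11, 7.75 and 8.52 in infested R plants, and 6.07, 6.58 and 6.24 in uninfested and 8.82, 8.60 and 9.10 in infested S plants. The R difference was 1.71, the S difference 2.54 and the interaction 0.84 ± 0.34 (adjusted p = 0.646). The beta-amylase gene Glyma.13g215000, of a class that breaks down starch, read 8.60, 8.34 and 8.45 without and 9.39, 9.12 and 9.44 with aphids in R plants, and 10.33, 10.37 and 10.46 in infested S plants, with an interaction of 0.62 ± 0.20 (adjusted p = 0.47). Glyma.03g015800 had a larger S response than R response by point estimate: it read 11.76, 10.78 and 11.67 in infested S plants and 6.25, 8.01 and 7.65 in infested R plants, with an interaction of 3.46 ± 0.62 (adjusted p = 0.121).

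A pair of C2H2 zinc finger factors from the study's table also had large R differences, which did not pass the adjusted threshold. Glyma.15g040700 read 9.33, 10.48 and 10.44 in infested R plants against 8.16, 8.80 and 6.67 in uninfested ones, an R difference of 2.21 (4.63-fold, unadjusted p = 0.00438) beside 3.54 in S plants. Glyma.03g173300, related to Arabidopsis ZAT11, had an R difference of 2.85 (7.21-fold) beside 4.86 in S plants. Their interactions, 1.33 and 2.01, had 95% intervals of -0.61 to 3.28 and -1.34 to 5.37, which reach from a lower to a much larger response in S plants. SUT1, a sucrose transporter that loads the phloem in other plants, was lower with aphids in both cultivars, by 1.07 in S plants (adjusted p = 0.0273) and 0.67 in R plants (unadjusted p = 0.0139), with an interaction of -0.40 ± 0.33.

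Ferritins, the plastid iron-storage proteins, were given by the study as a table of genes that separate the cultivars. The 13 ferritin probe sets of the study's table had a median difference of R minus S plants of 1.44 without and 1.61 with aphids, and R plants were higher for 12 of 13 and 13 of 13, respectively. The study reported this table from these same arrays, so the cultivar differences are a description and no independent evidence. An adjusted p under 0.05 for R against S plants was found for 0 of the 13 without aphids and for 3 with them. The interactions of these probe sets ran from -0.777 to 0.416 with a median of -0.171, the smallest unadjusted p was 0.196 and 0 met the relaxed criteria. The 95% intervals of the interaction reached from -2.54 to 2.52 across the 13, so large differences in response lie inside the interval of some probe sets. The aphid difference was negative in both cultivars, with medians of -0.57 in S and -0.558 in R plants, and none of it passed the adjusted threshold.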

How the data were processed

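The deposited series matrix holds 37653 rows of log2 values per array, of which 60 control rows were left out. The authors name GCRMA, and the labels list RMA, GCRMA and limma without versions. The deposited log2 values, however, were log2 of a whole number in 99.6% of entries (relative tolerance 1e-06), and array medians ran from 6.86 to 7.71, so the step that made them is not given in the sources used here. The 37593 soybean probe sets were quantile normalized over all 12 arrays. limma 3.58.1 in R 4.3.3 was fitted with 4 group means and no block, which leaves 8 residual degrees of freedom, with moderated variances (prior degrees of freedom 4.01). Group labels came from the sample titles and genotype. The number of arrays limits the precision, and a depth does not exist for arrays.

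Adjusted p-values run over all probe sets. "Rose", "fell" and "changed" mean an adjusted p under 0.05. "Rising" and "falling" members of the study's lists are named by the sign of their S difference alone. Of the 107 falling members of the S list, 87 had an adjusted p under 0.05 in S plants. The SE is that of the fit, and intervals are at 95%. The alternatives were the values as deposited, other background corrections and centring, filters, unmoderated variances, array weights, a block for array number and each array left out.

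Gene symbols came from the platform annotation, which gives 8677 probe sets a single symbol and 370 several symbols, and the latter were not named. A further gene identifier for 373 probe sets came from the study's tables of probe sets called in these samples, so names favour those called in S plants. The array's build is not named, and no coordinates are given. Named probe sets were those with an adjusted p under 0.05, then up to 15 a direction by smallest p with a gene and an absolute difference of at least 1, genes the study names, and up to 4 members of each of 27 symbol lists, with 1 probe set a gene. In the symbol lists that probe set was the one with the highest mean over all arrays, infested S arrays included. Members, lists and rules were chosen with earlier results of these data known. Lists are described by counts and medians. The fit was tested on simulated data. Columns of the study's supplementary tables gave identifiers only, and no values.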

Additional observations from a re-analysis of the deposited data

Results flagged for a closer look

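The aphid difference differed between the cultivars, by the test of the difference itself with an adjusted p under 0.05 in limma, for 3 probe sets, all larger in S plants. The interaction was 1.98 (log2) for Glyma.07g043000, 3.75 for Glyma.15g142200 and 2.76 for LOC100779018. Across 21 alternative settings the estimates lay between 1.848 and 2.053, between 3.435 and 4.111 and between 2.228 and 3.618, respectively. Infested R array 2 is described in the report by its values alone, and no test for an outlying array is given.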

How the results depend on the processing

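The 2 interaction calls at the study's cutoffs and the 3 with an adjusted p under 0.05 became 0 and 0 on the values as deposited, with normexp background correction at offset 0 and over probe sets above the median level, 1 and 1 without moderated variances, and 33 and 35 with array weights. Taking p of 0.001 or less and a fold of 2 or more gave 135. Leaving out 1 array gave 0 to 98 and 0 to 140. The relaxed interaction count of 1080 became 1748 at offset 0, 631 above the median level and 714 to 1792 with 1 array left out. The 1284 calls in S plants became 651 as deposited, 386 without moderation, 752 above the median level and 457 to 1887 with 1 array left out. The R count was 0 in every setting. The median R difference of the falling study list, -0.268, ran from -0.372 to -0.0909 with 1 array left out, and that of the rising list, 0.707, from 0.354 to 0.891. The causes were not tested. Leaving out infested R array 2 was chosen as a separate view of the gene lists after seeing the data. No named interaction changed sign.

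Array numbers were not taken as pairs, since the labels do not tie them to the chamber's blocks and 3 of 18 same-number pairs did not have a correlation over 0.1. The titles do call these numbers replicates, each number holds an array of every group, and the study describes a block layout of the plants. The data hint at a shared factor: 15 of 18 were over 0.1 (range -0.122 to 0.522), and 10 of 12 arrays correlated best with their own number. With the array number as a replicate block, 60 probe sets met the study's cutoffs, 67 had an adjusted p under 0.05, the 3 calls above among them, as well as Glyma.16g199000 (0.0173), ACS1 (0.0173) and F3H (0.042), and 2468 did for S plants.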
